A study of Mus musculus with 10 samples.

Results

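H3K4me3 and H3K27me3 were compared in Glast+ cells of adult mouse retina, using the 4 ChIP-seq libraries of these marks among the 10 libraries of the series. Every library came from retinas of C57BL/6 mice at postnatal day 28, and no animal was treated or genetically altered, per the labels. Glast, the glutamate transporter encoded by Slc1a3, is a marker of Müller glia, glial cells that span the retina, and of their precursors, and it was the basis of isolation, per the labels. The marks had 2 libraries each, called Exp1 and Exp2, and chromatin of 25000 cells went into each immunoprecipitation. Each library is represented by the authors' list of enriched regions, called islands: 16761 and 20169 for H3K4me3 in Exp1 and Exp2, and 7743 and 4105 for H3K27me3. A mark was counted where it covered the same base in both experiments, and a gene carried it where it reached within 1 kb of either annotated gene end. In this way 21779 protein-coding genes of mm10 were put into states: H3K4me3 only, both marks at the same end, both marks at different ends, H3K27me3 only, or neither. The lists hold no read counts, so the depth behind each is unknown.

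H3K4me3 is laid down at the promoters of active genes and of many CpG-rich genes by COMPASS complexes that contain Set1 and MLL methyltransferases. H3K27me3 is written by Polycomb repressive complex 2 through Ezh1 or Ezh2, and it marks genes that are kept silent, above all regulators of development. Promoters that carry both marks are often called bivalent, a state first described in embryonic stem cells at developmental genes. In a population of cells, both marks on the same chromosome and each mark in different cells cannot be told apart, so such genes are called doubly marked here.

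Promoters differ in how many CpG dinucleotides they hold, and the states differed in this count. The 6 promoters printed here are examples of 4 states, from 250 bases before to 50 bases after the transcription start. They were chosen to include promoters with more and with fewer CpG under the same mark. They come from RefSeq on GRCm38.p6 and read 5′ to 3′ on the strand of the gene, with each CpG in capitals. Glul (chr1:153899679-153899978, plus strand), the glutamine synthetase of Müller glia, carried H3K4me3 only, and so did Nrl (chr14:55524203-55524502, minus strand), a rod transcription factor with a CpG-poor promoter. Sox2 (chr3:34649745-34650044, plus strand), a progenitor factor that Müller glia retain, was doubly marked. Hoxa13 (chr6:52260831-52261130, minus strand), a patterning factor of limb and hindgut, and Vmn1r183 (chr7:24054524-24054823, plus strand), a pheromone receptor, carried H3K27me3 only. Olfr544 (chr7:102488258-102488557, minus strand), an odorant receptor, carried neither mark.
Glul: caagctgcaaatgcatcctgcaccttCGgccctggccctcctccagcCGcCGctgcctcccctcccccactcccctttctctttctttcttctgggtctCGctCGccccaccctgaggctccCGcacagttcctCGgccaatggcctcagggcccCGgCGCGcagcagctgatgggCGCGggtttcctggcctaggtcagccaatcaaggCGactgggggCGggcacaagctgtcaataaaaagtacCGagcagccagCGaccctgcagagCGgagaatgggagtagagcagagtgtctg
Nrl: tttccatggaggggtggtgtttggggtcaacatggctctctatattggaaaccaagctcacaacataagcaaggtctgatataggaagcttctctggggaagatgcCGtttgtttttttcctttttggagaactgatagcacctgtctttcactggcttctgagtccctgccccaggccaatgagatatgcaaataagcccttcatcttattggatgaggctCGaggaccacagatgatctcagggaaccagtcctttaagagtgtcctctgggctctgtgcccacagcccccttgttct
Sox2: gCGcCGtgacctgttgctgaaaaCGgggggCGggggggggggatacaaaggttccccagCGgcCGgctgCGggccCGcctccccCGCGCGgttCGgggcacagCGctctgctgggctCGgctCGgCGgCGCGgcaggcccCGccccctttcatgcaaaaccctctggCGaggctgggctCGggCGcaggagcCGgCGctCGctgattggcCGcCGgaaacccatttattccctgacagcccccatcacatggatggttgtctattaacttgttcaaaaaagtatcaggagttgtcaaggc
Hoxa13: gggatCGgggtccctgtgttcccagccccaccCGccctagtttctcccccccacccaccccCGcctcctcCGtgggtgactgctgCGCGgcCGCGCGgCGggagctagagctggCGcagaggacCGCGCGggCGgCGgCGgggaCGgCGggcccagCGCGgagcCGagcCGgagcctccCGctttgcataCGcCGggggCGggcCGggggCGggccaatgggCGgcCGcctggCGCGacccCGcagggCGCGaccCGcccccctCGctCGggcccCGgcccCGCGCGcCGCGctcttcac
Vmn1r183: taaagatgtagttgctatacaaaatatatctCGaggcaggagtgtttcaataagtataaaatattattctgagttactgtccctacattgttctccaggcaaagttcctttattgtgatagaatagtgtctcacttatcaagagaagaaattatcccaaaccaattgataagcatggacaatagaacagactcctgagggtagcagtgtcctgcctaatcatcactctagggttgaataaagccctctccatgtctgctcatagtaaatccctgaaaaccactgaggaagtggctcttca
Olfr544: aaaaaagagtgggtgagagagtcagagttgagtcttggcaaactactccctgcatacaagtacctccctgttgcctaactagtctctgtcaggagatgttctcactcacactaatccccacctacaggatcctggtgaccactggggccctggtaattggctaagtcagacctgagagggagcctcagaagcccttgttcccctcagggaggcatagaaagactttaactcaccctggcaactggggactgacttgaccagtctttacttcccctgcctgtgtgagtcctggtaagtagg
The counts of CpG in these 300 bases were 17 for Glul, 2 for Nrl, 27 for Sox2, 45 for Hoxa13, 1 for Vmn1r183 and 0 for Olfr544. Of all 17492 protein-coding genes with a promoter in the table, 94.8% held at least 1 CpG and 57.2% held 10 or more (the letters CG, which read the same on both strands). Promoters with 10 or more made up 86.8% of those with H3K4me3 only, 76.6% of the doubly marked ones, 13.9% of those with H3K27me3 only and 18.9% of those with neither mark. The printed Hoxa13 promoter is thus among the smaller part of its state, and the printed Nrl promoter among the smaller part of its own.

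H3K4me3 lay at an end of 12822 genes (58.9%) and H3K27me3 at an end of 5101 genes (23.4%). H3K4me3 only was the commonest state, with 11361 genes (52.2%). Both marks met at the same end of 1256 genes (5.77%) and lay at different ends of 205 genes (0.941%). H3K27me3 only was found at 3640 genes (16.7%), and 5317 genes (24.4%) carried neither mark. Called within each experiment, H3K4me3 only took 50.8% ± 0.435 of genes (mean ± SD, n = 2 experiments), both marks at the same end 8.2% ± 0.468, H3K27me3 only 18.8% ± 1.92 and neither 20.9% ± 1.18. With 2 libraries a mark, an exact two-sided permutation test cannot go below p = 0.33, so differences are given as values with the spread between experiments. Nothing in the labels says which animals went into each experiment, so that spread may be partly technical.

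**Figure D1:**
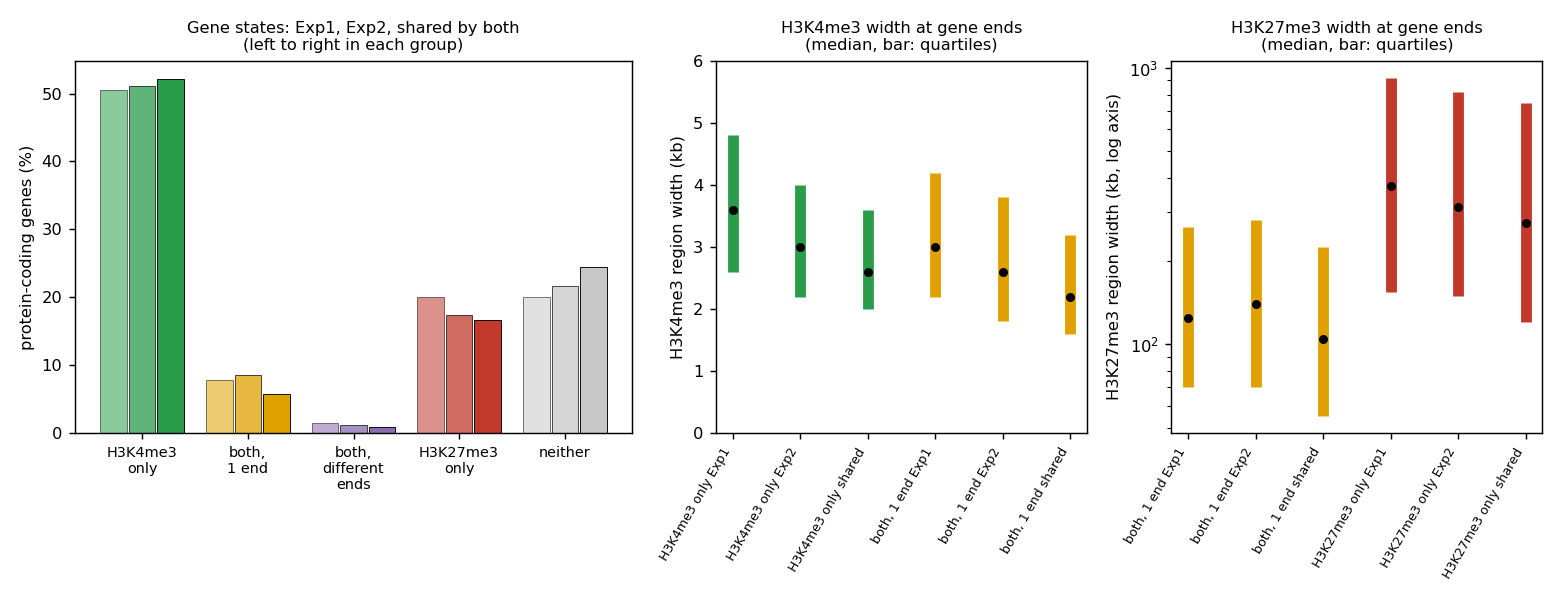
Left, the percentage of 21779 protein-coding genes in each state, for Exp1, Exp2 and the regions shared by both; middle and right, the width in kb of the H3K4me3 and H3K27me3 regions at gene ends, with points for medians and bars for quartiles over genes. H3K4me3 only is near 50% of genes however it is called, doubly marked genes are 5.77% when both experiments must share the region, and H3K27me3 regions have a median of 105 kb at doubly marked genes against 275 kb at genes with H3K27me3 only.

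The 2 experiments put 19040 genes (87.4%) into the same state. H3K4me3 only was the most repeatable state: 89.1% of the genes that had it in either experiment had it in both. The same share was 70.2% for H3K27me3 only, 73.0% for neither mark and 54.4% for both marks at the same end. Of 1713 genes doubly marked in Exp1, 357 (20.8%) carried H3K4me3 only in Exp2 and 72 (4.2%) carried H3K27me3 only. Of 1857 doubly marked in Exp2, 350 (18.8%) carried H3K4me3 only in Exp1 and 194 (10.4%) carried H3K27me3 only. A direct exchange of the single marks was rare, with 9 genes at H3K4me3 only in Exp1 and H3K27me3 only in Exp2, and 45 the other way round.

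By length, most of each mark lay outside the other. Whether the overlap differed from the share of the genome that H3K27me3 covers was not tested. Shared H3K4me3 regions covered 44.85 Mb and shared H3K27me3 regions 466.9 Mb, and 5.874 Mb carried both, which was 13.1% of the H3K4me3 length and 1.26% of the H3K27me3 length. Within an experiment the overlap was wider, at 20.3% of the H3K4me3 length in Exp1 and 23.4% in Exp2. Islands of H3K4me3 lie on a grid of 200 bp and those of H3K27me3 on a grid of 5000 bp, so the borders of the repressive mark are known less finely. Among 16342 H3K4me3 regions, 2091 (12.8%) lay wholly inside H3K27me3, 116 (0.71%) crossed a border and 14135 (86.5%) lay outside. Those inside were narrower, with a median of 2.0 kb against 2.4 kb outside, and fewer of them touched a gene end, 52.2% against 72.4%. The median distance from an inside region to the nearest H3K27me3 border was 19 kb.

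At doubly marked genes a narrow H3K4me3 region typically sat inside a far wider H3K27me3 region. This was the arrangement at 1170 of the 1256 genes (93.2%), while 76 (6.05%) had an H3K4me3 region across the border and 10 (0.796%) had regions that did not touch. A gene counted as the first kind if any such region lay inside. Among all H3K4me3 regions, at genes or not, 2091 likewise lay inside H3K27me3 and 116 crossed a border. Their H3K4me3 regions had a median width of 2.2 kb, against 2.6 kb at genes with H3K4me3 only. Their H3K4me3 islands also had weaker p-values: an island at or below the median p-value of its list marked 31.4% of doubly marked genes in Exp1 and 44.5% in Exp2, against 74.2% and 83.6% of genes with H3K4me3 only. With such islands alone, doubly marked genes made up 0.955% of all genes. The p-values are the authors'.

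The direction of transcription separated the marks. The start end of a gene is here its first annotated end by strand. The listed promoter start lay at that annotated end in 60.5% of 17492 genes. Where H3K4me3 lay at a single end of a gene with a RefSeq promoter, it was the start end in 8776 of 9008 genes (97.4%). H3K27me3 at a single end was at the start end in 492 of 818 (60.1%). Among 165 genes with the marks at different ends, 152 (92.1%) had H3K4me3 at the start end and H3K27me3 at the other end. The marks of these genes lie at opposite ends by definition, so this count tells only where H3K4me3 lay.

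**Figure D2:**
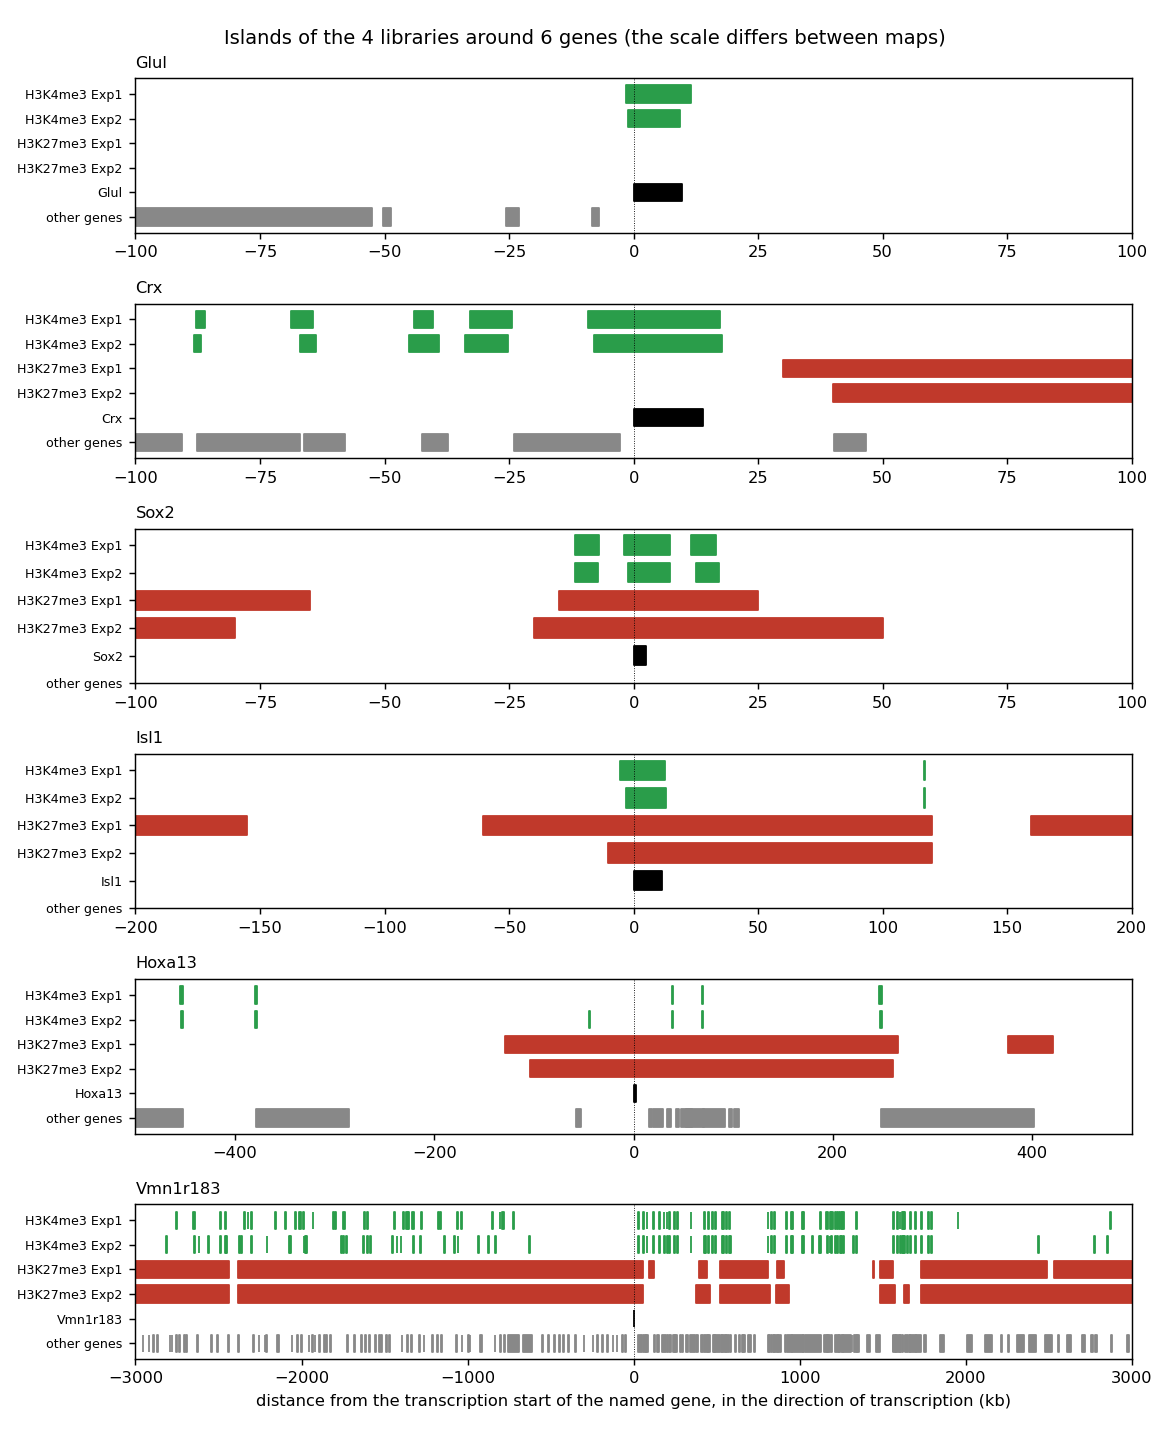
Islands of H3K4me3 (green) and H3K27me3 (red) in Exp1 and Exp2 around 6 genes, by distance in kb from the transcription start; black bars are the named gene and grey bars other protein-coding genes, and the scale differs between maps. H3K4me3 alone spans Glul and Crx, H3K4me3 sits inside H3K27me3 at Sox2 and Isl1, and H3K27me3 alone spans Hoxa13 and Vmn1r183.

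Promoter CpG content followed H3K4me3 more than H3K27me3. The ratio of observed to expected CpG had a median of 0.783 at genes with H3K4me3 only, 0.698 at doubly marked genes, 0.158 at genes with H3K27me3 only and 0.227 at genes with neither mark. Over all 17492 promoters it was 0.577. In these values the doubly marked genes stood next to the genes with H3K4me3 only. The median difference between doubly marked genes and genes with H3K27me3 only was 0.534 in Exp2 alone and 0.516 in Exp1 alone.

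**Figure D3:**
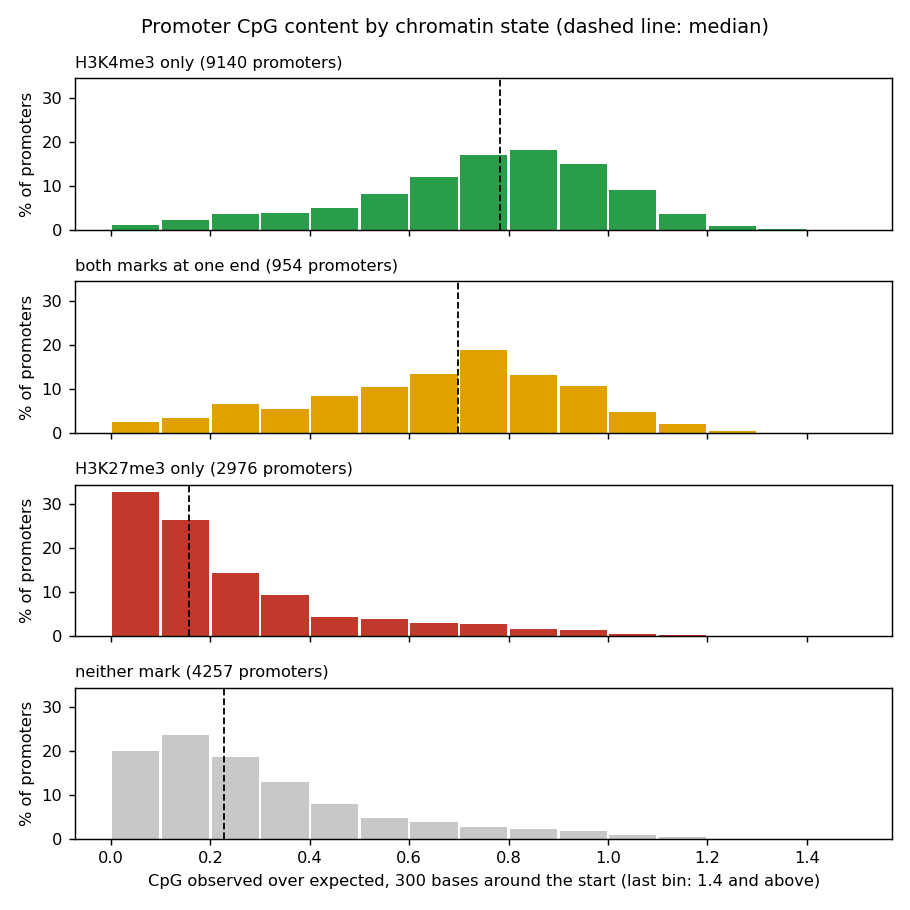
The percentage of promoters in each bin of observed over expected CpG, for 4 states, with the median as a dashed line. H3K4me3-only and doubly marked promoters centre near 0.783 and 0.698, while H3K27me3-only promoters and unmarked promoters pile up near 0.158 and 0.227.

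Genes with H3K27me3 only were mostly CpG-poor, and their number declined steadily with CpG content, without a gap. A promoter was called CpG-rich at a GC content of at least 50% and an observed over expected ratio of at least 0.6, limits set after the medians were seen. Of the promoters with H3K27me3 only, 237 (7.96%) were CpG-rich and 2739 (92.0%) were not. The CpG-rich genes also carried H3K4me1, the enhancer-type mark found at 54.7% of all genes, in 62.9% of cases, and H3K9me3, the heterochromatin mark found at 13.5% of all genes, in 12.2%. The CpG-poor genes showed the opposite, with H3K4me1 at 5.88% and H3K9me3 at 64.6%. Doubly marked genes carried H3K4me1 in 85.7% of cases and H3K9me3 in 19.7%, and genes with H3K4me3 only in 83.1% and 1.27%. Developmental factors with H3K27me3 only had CpG-rich promoters in 48 of 88 cases, and signalling genes in 12 of 16, whereas genes of the tandem clusters had them in 2 of 1006.

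Genes with roles in every cell were nearly all marked by H3K4me3 only. The counts were 79 of 81 genes for cytosolic ribosomal proteins, 73 of 75 for mitochondrial ribosomal proteins, 36 of 37 for respiratory complex I and 35 of 43 for the proteasome. The proteasome genes with both marks at the same end were Psmb8, Psmb9 and Psmc4, and Psmd8 and Psmd14 had the marks at different ends. Psmb8 and Psmb9 encode subunits of the immunoproteasome. Among 165 families of genes that share a symbol stem and have at least 15 members, 24 had H3K4me3 at 90% or more of their genes and H3K27me3 at 10% or less. All 28 Polr genes, which encode RNA polymerase subunits, all 15 Ints genes of the Integrator complex and all 29 Mrps genes carried H3K4me3 only. Actb had an H3K4me3 region of 3.8 kb in Exp1 and of 6.6 kb in Exp2, Gapdh one of 7.8 and 6.8 kb, and neither gene had H3K27me3. Where widths are given in pairs, Exp1 comes before Exp2.

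The enzymes that write and erase these marks were themselves marked by H3K4me3. All 11 genes for Polycomb repressive complex 2, among them Ezh1, Ezh2, Suz12 and Eed, carried H3K4me3 only, as did all 7 demethylases of H3K4 and H3K27 examined. Ezh2 had an H3K4me3 region of 3.2 kb in each experiment. Of 19 genes for Polycomb repressive complex 1, 12 carried H3K4me3 only, 5 were doubly marked and 1 had the marks at different ends. Ring1, Pcgf1 and Cbx2 were among the doubly marked. Cbx2 encodes a subunit that binds H3K27me3. At Cbx2 the H3K4me3 region was 2.8 kb in Exp1 and 1.6 kb in Exp2, within H3K27me3 of 90 kb in Exp1 and of 110 kb in Exp2. Ash2l and Dpy30, core COMPASS subunits, had neither mark at an annotated end, though both had H3K4me3 between their ends.

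Developmental transcription factors often carried H3K27me3, and families differed in whether H3K4me3 was present too. Of 309 such genes, 149 had H3K4me3 and 188 had H3K27me3, beside 58.9% and 23.4% of all genes. H3K27me3 only was the state of 37 of 39 Hox genes, which set position along the body axis, of all 6 Dlx genes, of 12 of 14 Nkx genes and of 5 of 6 Gata genes. The Hox exceptions, Hoxa4 and Hoxa9, were doubly marked. Hoxa13 lay in an H3K27me3 region of 395 kb in Exp1 and of 365 kb in Exp2, with no H3K4me3 at its ends in either, and Gata4 in one of 150 kb in each. None of the 39 Hox genes carried H3K9me3, and 9 carried H3K4me1. The Dlx calls rested on Exp1, since 3 of the 6 had H3K4me3 in Exp2, among them Dlx1 with a region of 2.4 kb.

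Other families were mainly doubly marked or mixed. Zic genes were doubly marked in 4 of 5 cases, and LIM homeobox genes in 4 of 12 (Isl1, Lhx2, Lhx3 and Lhx9), with the other 8 at H3K27me3 only. Sox genes split into 6 with H3K4me3 only, 6 doubly marked, 4 with H3K27me3 only and 3 with neither. Fox genes split into 13, 10, 15 and 4 in the same order, with 2 more that had the marks at different ends. T-box genes had 9 of 16 at H3K27me3 only and 4 doubly marked (Eomes, Tbr1, Tbx2 and Tbx3). Klf and Sp genes differed, with H3K4me3 only at 19 of 29. Their symbol pattern also takes in Sp100, Sp110 and Sp140, nuclear body proteins outside the Sp family, which carried H3K27me3 only.

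**Figure D4:**
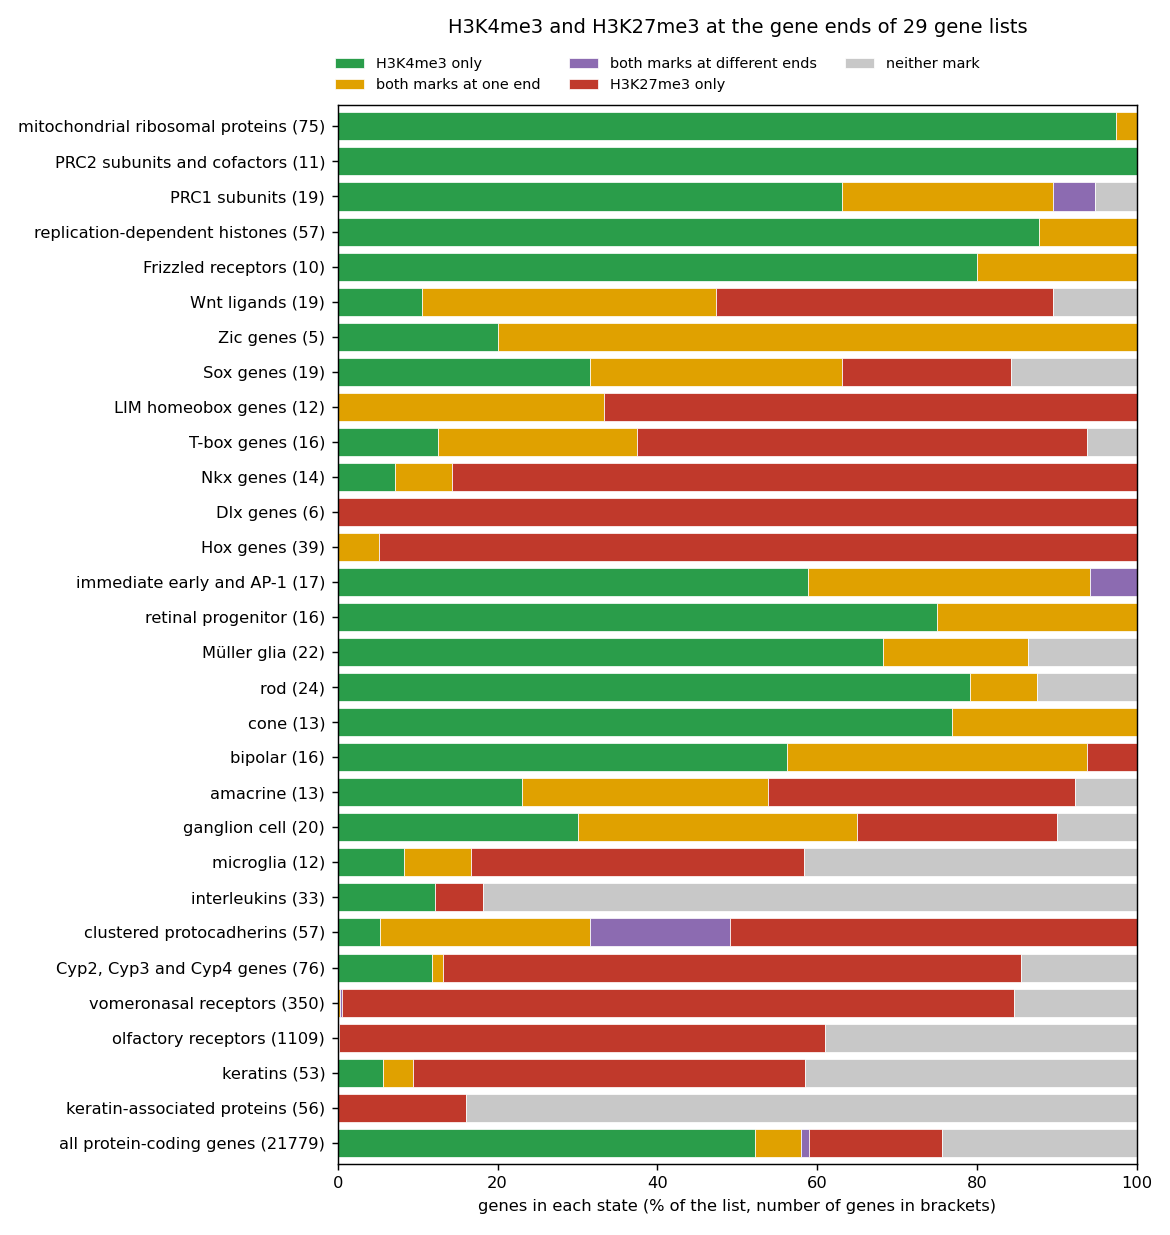
The percentage of genes in each state for 29 gene lists, with all protein-coding genes in the last bar and the number of genes in brackets. Mitochondrial ribosomal protein genes are almost wholly H3K4me3 only, and Zic, Wnt and Sox genes hold large doubly marked parts. Hox and Dlx genes are almost or wholly H3K27me3 only in regions shared by both experiments.

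The widest H3K4me3 regions at doubly marked genes lay over some eye factors and over more genes of other kinds. Pax6, which directs eye development, had H3K4me3 of 24.8 kb in Exp1 and of 27.8 kb in Exp2 and H3K27me3 of 35 kb and 30 kb. Isl1, a factor of bipolar and ganglion cells, had H3K4me3 of 18.0 and 16.0 kb and H3K27me3 of 180 and 130 kb. Tbx2 had H3K4me3 of 16.0 and 17.8 kb and H3K27me3 of 105 and 25 kb. At Pax6 the marks were thus of nearly equal width, while at Isl1 the repressive region was several times wider in both experiments. Gas8 had the widest shared H3K4me3 region among doubly marked genes, 87.2 kb, and its region had this width in each experiment. Shared regions wider than those at Isl1 and Tbx2 also lay over Gm21119, Gm40469, Fcgr3, Hjurp, Zfp978 and Zfp991, all with H3K9me3. Gas8 and Isl1 carried H3K9me3 too, while Pax6 and Tbx2 did not.

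Ligands and receptors of the Wnt pathway had different states. Of 19 Wnt ligands, 8 carried H3K27me3 only, 7 were doubly marked, 2 carried H3K4me3 only and 2 neither. Of 10 Frizzled receptors, which bind them, 8 carried H3K4me3 only and 2, Fzd8 and Fzd10, were doubly marked. H3K4me3 only held 6 of these 10 in Exp1 alone, 7 in Exp2 alone and 5 with a mark in either experiment. Wnt1 lay in H3K27me3 of 40 kb in Exp1 and of 85 kb in Exp2, with a promoter of 26 CpG. Notch receptors, ligands and core genes resembled the Frizzled genes, with 13 of 17 at H3K4me3 only. Ephrins and their receptors had H3K4me3 only at 14 of 22, and Fgf ligands at 6 of 22, with 8 at neither mark. In all genes H3K4me3 only held 52.2%, H3K27me3 only 16.7%, both marks at the same end 5.77% and neither 24.4%.

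Most listed genes of Müller glia, and all those of the progenitors from which they arise, carried H3K4me3. Among 22 Müller glia genes, 15 had H3K4me3 only, 4 were doubly marked and 3 had neither, and none had H3K27me3 only. H3K4me3 lay at 86.4% of them, beside 58.9% of all genes, and with islands at or below the median p-value of their list the count with H3K4me3 only was 9. Glul had an H3K4me3 region of 13.0 kb in Exp1 and of 10.4 kb in Exp2, and Slc1a3 one of 6.0 and 4.8 kb, without H3K27me3 at either gene. Rlbp1, the retinaldehyde-binding protein, was doubly marked, with H3K4me3 of 2.0 and 1.2 kb inside H3K27me3 of 160 kb in each experiment. Sox9 had H3K4me3 of 6.6 and 4.8 kb and H3K27me3 of 30 and 60 kb, of which 10 kb were shared. Sox2 had H3K4me3 of 9.4 and 8.6 kb and H3K27me3 of 40 and 70 kb. Aqp4, the water channel of glial endfeet, had neither mark at its ends, but H3K4me3 lay between them. All 16 progenitor genes carried H3K4me3, and 4 of them, Pax6, Lhx2, Sox2 and Fgf15, were doubly marked.

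Proneural factors and the immediate early genes were divided. Neurod1 had H3K4me3 only, with regions of 11.8 kb in Exp1 and of 10.8 kb in Exp2. Atoh7, needed for ganglion cells, and Neurog2 were doubly marked, with H3K4me3 of 1.4 and 1.0 kb at Atoh7 and 3.0 and 2.6 kb at Neurog2, and H3K27me3 of 40 and 70 kb at Atoh7 and 20 and 40 kb at Neurog2. Over 23 bHLH genes, 6 carried H3K4me3 only, 7 were doubly marked, 6 carried H3K27me3 only (Olig2 and Atoh1 among them) and 4 neither. In all genes 5.77% were doubly marked. With islands at or below the median p-value of their list, 0 of the 23 were doubly marked. With 50% of the window covered the count was 4, and with transcription starts alone it was 4 of 20. All 17 immediate early and AP-1 genes carried H3K4me3. Fos, Jun and 8 others had it alone, 6 were doubly marked (Egr2, Egr3, Egr4, Atf3, Nr4a3 and Arc), and Nr4a2 had the marks at different ends. Egr2, for example, had H3K4me3 of 4.2 and 4.8 kb in H3K27me3 of 35 kb in each experiment.

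Lists of retinal neuron types ran from few to many genes with H3K27me3, beside 58.9% of all genes with H3K4me3 and 23.4% with H3K27me3; differences between types were not tested. Rod genes carried H3K4me3 in 21 of 24 cases and H3K27me3 in 2, and cone genes in 13 of 13 and 3. Bipolar genes had H3K4me3 in 15 of 16 cases and H3K27me3 in 7. Amacrine genes had them in 7 and 9 of 13, horizontal cell genes in 3 and 5 of 6, and ganglion cell genes in 13 and 12 of 20. Crx, a photoreceptor factor, had H3K4me3 of 26.6 kb in Exp1 and of 25.8 kb in Exp2, and Nrl 11.8 and 11.4 kb. Their promoters were CpG-poor, with 3 and 2 CpG, and 12 of 14 rod genes and 7 of 9 cone genes with H3K4me3 and a listed promoter were CpG-poor. The counts were 11 of 14 for bipolar, 8 of 12 for Müller glia, 4 of 7 for amacrine and 3 of 6 for ganglion cell genes. For horizontal cell genes the count was 0 of 2 and for progenitor genes 1 of 10. Over all genes, 27.3% of promoters with H3K4me3 only and 41.0% of doubly marked ones were CpG-poor. Pou4f2, a ganglion cell factor, had H3K27me3 of 45 and 30 kb and no H3K4me3. Gad1, which makes GABA, was doubly marked, with H3K4me3 of 3.8 and 6.4 kb and H3K27me3 of 65 and 30 kb, and so was Onecut1, with 3.2 and 3.0 kb and 45 and 35 kb.

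Markers of the other retinal cell types were checked as well. Of the defining markers, H3K4me3 lay at an end of 9 of 10 for Müller glia (all but Aqp4), 6 of 7 for rods, 4 of 4 for cones, 4 of 4 for bipolar cells, 3 of 4 for amacrine cells and 3 of 4 for ganglion cells. It lay at 0 of 4 for microglia (Aif1, Cx3cr1, Csf1r and C1qa) and at 1 of 4 for endothelium. Over the full list of 12 microglia genes it lay at 2 (2 in Exp1 and 5 in Exp2), and over 10 endothelial genes at 3. In a bulk population, a mark in all cells and a mark in a share of other cells cannot be told apart, and the part of photoreceptors in these values was not tested.

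Neuronal and immune families were less uniform. Potassium channel genes were divided into 40 with H3K4me3 only, 18 doubly marked, 10 with H3K27me3 only and 24 with neither, of 94. AMPA, kainate and NMDA receptor genes, with the related symbols Grid and Grina, had H3K4me3 at 16 of 19. GABA-A and glycine receptor genes had it at 17 of 24, and 3 had H3K27me3. Clustered protocadherins, which give neurons their surface identity, had H3K27me3 at 54 of 57, H3K4me3 at 28 and H3K9me3 at 52. Their genes overlap and share exons, so neighbours are not separate observations. Neither mark, the state of 24.4% of all genes, was found at 27 of 33 interleukins, 28 of 38 chemokines and 6 of 12 Toll-like receptors. Called per experiment, H3K27me3 lay at 14 chemokines in Exp1 and 6 in Exp2, and at 6 and 2 interleukins. Killer cell lectin-like receptors of the Klr families instead had H3K27me3 only at 17 of 27, with 10 at neither. The exceptions with H3K4me3 only were Il7, Il15, Il17d and Il33 among interleukins.

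Tandem clusters of sensory, skin and liver genes made up a large part of the genes with H3K27me3 only. Olfactory and vomeronasal receptor genes were 969 of the 3640, or 26.6%. H3K27me3 only, the state of 16.7% of all genes, was found at 675 of 1109 olfactory receptors and 294 of 350 vomeronasal receptors. Neither mark was found at 433 and 54, and 3 of the 1459 receptor genes had H3K4me3. Called per experiment, H3K27me3 lay at 861 olfactory receptors in Exp1 and 694 in Exp2. For vomeronasal receptors the counts were 325 and 302. Cyp2, Cyp3 and Cyp4 genes, which metabolise steroids and drugs, had H3K27me3 only at 55 of 76. Families of this kind included all 29 Defa genes (alpha-defensins), all 24 Mup genes (major urinary proteins), 17 of 18 Nlrp genes and 43 of 47 Pramel genes. Most also carried H3K9me3, at 29 Defa genes, 21 Mup genes and 42 Pramel genes.

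H3K9me3 was not shared by all of them. Klk genes, which encode kallikrein proteases, had H3K27me3 only at 24 of 26 but H3K9me3 at 1. Keratins had H3K27me3 only at 26 of 53 and H3K9me3 at 0. Klk1 lay in H3K27me3 of 580 kb in Exp1 and of 990 kb in Exp2, and Vmn1r183, which did carry H3K9me3, in one of 2440 kb in each. Skin genes of other clusters varied. With regions shared by both experiments, all 21 Lce genes carried neither mark. Of the 35 Lce and Sprr genes, 11 carried H3K27me3 only, Sprr1a and Sprr3 among them. H3K27me3 lay at 11 of these 35 in Exp1 alone and at 18 in Exp2 alone, some Lce genes among the latter. Neither mark was found at 47 of 56 keratin-associated proteins, but at 28 in Exp1 alone, where the other 28 had H3K27me3, and at 42 in Exp2 alone. All 15 Taar genes, a further set of odorant receptors, also carried neither. Zfp zinc finger genes, although clustered, had H3K4me3 at 338 of 397, and 115 carried H3K9me3. All 57 replication-dependent histone genes had H3K4me3, and 7 were doubly marked.

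**Figure D5:**
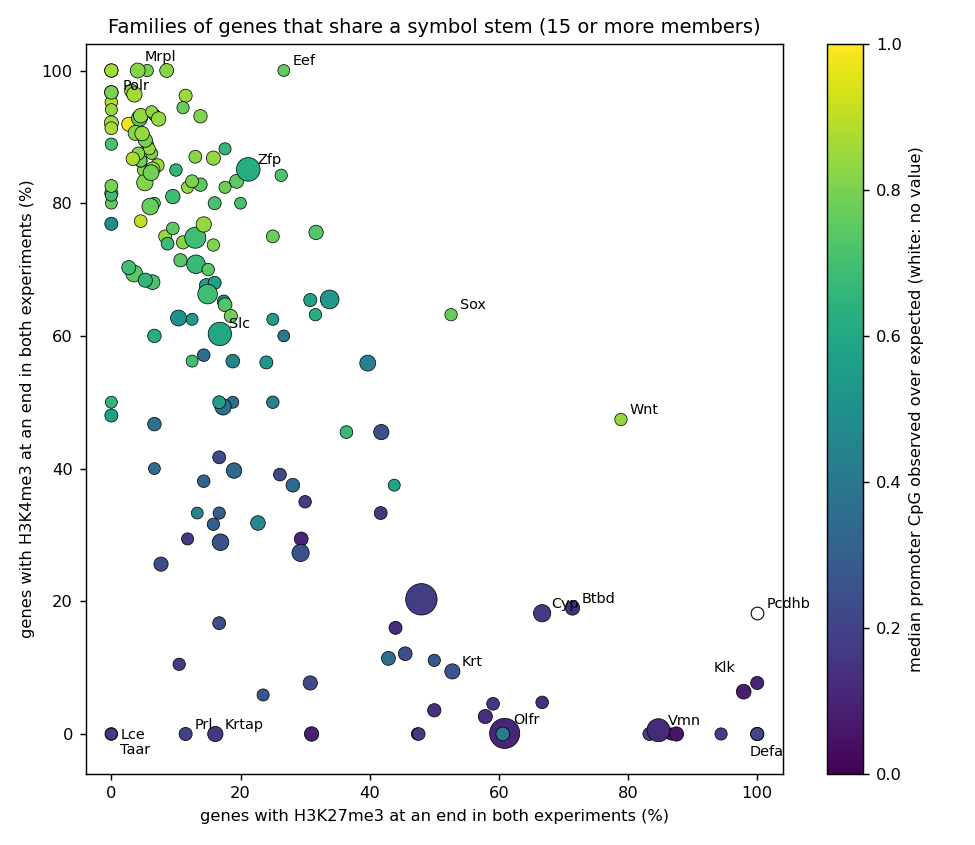
Each point is a family of at least 15 genes that share a symbol stem, by the percentage of its genes with H3K4me3 (vertical) and with H3K27me3 (horizontal) at an end; point size grows with the number of genes and colour gives the median promoter CpG ratio. Families of high CpG ratio sit at the upper left, clustered families of low ratio along the bottom, and Wnt (47.4% and 78.9%) and Sox (63.2% and 52.6%) carry both marks at many of their genes.

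Of the 165 stem families, 17 had H3K27me3 at 50% or more of their genes and H3K4me3 at 10% or less, and 5 were doubly marked at 20% or more: Wnt, Sox, Eef, Adamts and Kcnj. Eef, the translation elongation factors, had 11 genes with H3K4me3 only and 4 doubly marked of 15, and neither Eef nor Adamts had a gene with H3K27me3 only. The stems group genes by name, so unrelated genes can share one.

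Genes of the same state often followed each other along the chromosome, and a commoner state forms longer runs by number alone. Runs of 5 or more neighbours held 57.6% of genes with H3K27me3 only, 56.3% of those with H3K4me3 only, 25.2% of those with neither and 10.8% of doubly marked genes, of which 46.7% stood alone. No gene with the marks at different ends was in such a run, and 90.2% of these stood alone. The longest run of H3K27me3 only was 106 genes over 4090 kb of chromosome 7, from Ceacam20 to Vmn1r183. The longest run of H3K4me3 only was 30 genes over 233.4 kb of chromosome 13, from H4c8 to H1f1 in the histone cluster. Chromosome 7 had 33.4% of its genes at H3K27me3 only, or 21.7% without receptor genes, and the X chromosome 25.4%. On the Y chromosome 96.9% of 256 genes carried neither mark. Of these, 235 formed the longest run of any state, from Gm21704 to Gm21996. Whether reads could be placed at these predicted genes was not tested. Isolated genes, with no other gene within 5 kb, had H3K4me3 only in 30.5% of cases and H3K27me3 only in 31.6%; in all genes the shares were 52.2% and 16.7%.

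By number, most H3K27me3 regions held no protein-coding gene end. Of 4262 shared regions, 2634 (61.8%) contained none, with a median width of 55 kb, and 201 (4.72%) contained over 10, with a median width of 345 kb. H3K4me3 lay in 10.3% of the regions without a gene end, 55.7% of those with 1 or 2 and 61.7% of those with over 10. The 10 widest H3K27me3 regions by gene, in each of the H3K27me3-only and doubly marked states, were all the same region of 4735 kb on chromosome 14. It holds predicted genes such as Gm10338 and Gm2897, whose near-identical copies can share reads, and how reads with several matches were handled is not given in the sources used here.

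The widest H3K4me3 regions at genes with H3K4me3 only included Mid1 on the X chromosome, with 50.2 kb in Exp1 and 49.6 kb in Exp2, Stk35 with 29.6 and 28.8 kb, and Prph2, a rod disc protein, with 29.2 and 28 kb. Mid1 also carried H3K9me3, as did 1.27% of all genes with H3K4me3 only. The region of Prph2 also reaches its neighbour Ubr2. A group of predicted genes near one another on chromosome 6, Gm36327 and Gm40364 among them, shared a region of 37.0 kb in Exp1 and of 36.6 kb in Exp2. Whether reads with several matches shaped the regions of Mid1 and of these genes was not tested.

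Unmarked gene ends did not always mean an unmarked gene. Of the 5317 genes with neither mark, 788 (14.8%) had a shared H3K4me3 region between their ends, and 94 (1.77%) had H3K27me3. Within the gene lists these included Ash2l, Aqp4, Abca8a and Cbx7, all with H3K4me3 between their ends. The window also has an edge: 102 genes had their nearest H3K4me3 800 to 1000 bp from an end, just inside it, and 73 had it 1000 to 1200 bp away, just outside.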

How the data were processed

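H3K4me3, H3K27me3, H3K4me1 and H3K9me3 were profiled by ChIP-seq in 2 experiments each, and 2 input libraries were not analysed here. Per the labels' protocols, chromatin was fixed with formaldehyde and 500 pg of DNA went into each library, read as single ends of 50 bp. The submitters' processing notes name the build mm10, the aligner BWA (0.7.5a), the caller SICER, SAMtools (1.3.1), bedtools (2.17) and FastQC. How SICER was set, and against which control, was not given in the sources used here. The authors deposited for each island its position and a p-value, which could also be a q-value. Islands were called in each library separately. Those with a value above 0.05 numbered 0 for H3K4me3 and 92 and 85 for H3K27me3 (Exp1 and Exp2).

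Samples were grouped by mark from their titles. Regions were intersected between experiments with Python 3.11.15, numpy 2.4.6 and pandas 2.3.3, figures were drawn with matplotlib 3.10.9, and the interval code was tested on simulated data. Genes came from the RefSeq table of GRCm38.p6, which shares mm10 coordinates. Of 21887 protein-coding genes, 108 that start before 3 Mb on an autosome or the X chromosome were left out, since mm10 has no sequence there and their coordinates must be those of other sequences. The table gives no strand, so windows of 1 kb were set at both gene ends with an overlap of at least 1 bp, and promoters of 17492 genes gave strand and sequence. A neighbour's island can mark an end. The 76 gene lists, families and members were chosen with earlier results of these data known. Named genes were a fixed set, up to 6 list members per state in list order, exceptions, the widest regions and the families highest or lowest in a state; some are not reported here. Alternatives were each experiment alone, either experiment, other windows, stricter islands, starts alone, a replicate block and left-out gene groups.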

Additional observations from a re-analysis of the deposited data

How the results depend on the processing

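H3K4me3 only kept its share within 1.5 times of 52.2% under every alternative run except isolated genes with no neighbour within 5 kb (30.5%). H3K27me3 only did so around 16.7% with the same exception (31.6%). Doubly marked genes, 5.77% of all, came to 10.9% with a mark in either experiment and 0.955% with islands at or below the median p of their list. Genes with neither mark, 24.4%, came to 41.5% with those stricter islands. The percentage of H3K4me3 length inside H3K27me3, 13.1%, ranged from 20.3% to 23.4% when an experiment was left out, and was 29.7% with either experiment and 2.81% with stricter islands; the intersection between experiments shortens both marks by construction, and other causes were not tested. Deviations of H3K4me3 and H3K27me3 within an experiment had a correlation of -0.0119 at gene ends, so the libraries were not treated as pairs; whether an experiment shared cells or a preparation is not known from this. With a replicate block, the overlap averaged 21.9%, and 47.9% of genes had H3K4me3 only, 15.5% H3K27me3 only, 5.78% both marks at the same end and 17.6% neither. Keeping the 108 genes that start before 3 Mb, an alternative chosen after seeing the data, gave 24.8% with neither mark. The commonest state of a gene list moved by over 1.5 times in 26 of 76 lists with stricter islands, 13 with either experiment, 4 and 2 with Exp2 or Exp1 alone, and 0 with windows of 500 bp or 2.5 kb. Depth is unknown, island grids differ between marks, and gene ends miss internal starts.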

Other observations

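Solute carriers, the largest transport family listed, were spread over the states much as all genes were. Of 387, 206 carried H3K4me3 only, 42 H3K27me3 only, 19 both marks at the same end and 115 neither. In all genes the shares were 52.2%, 16.7%, 5.77% and 24.4% in the same order. Among 44 collagens, 23 had neither mark, 11 H3K4me3 only and 7 H3K27me3 only, and Col4a1 and Col4a2 of the basement membrane were in the H3K4me3 group. Laminins had H3K4me3 at 8 of 11, beside 58.9% of all genes.

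Cell cycle genes mostly carried H3K4me3, at 13 of 16 cyclins, Cdks and Rb family genes, beside 58.9% of all genes. Ccnd2 and Cdk4 were doubly marked. Cdkn1b, a Cdk inhibitor of resting cells, had H3K4me3 of 11.2 kb in Exp1 and of 5.4 kb in Exp2 and no H3K27me3, whereas Cdkn1a carried H3K27me3 only. All 7 listed Cdk inhibitor genes had H3K4me3 in Exp1 and 6 had it in Exp2, so the call at Cdkn1a rested on Exp2. Pluripotency genes carried H3K27me3 only at 5 of 10, Pou5f1 among them, and neither mark at 4, Nanog among them. These states held 16.7% and 24.4% of all genes. Lin28a had H3K4me3 only.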
